A study of Mus musculus with 10 samples.

Results

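The genes described here make up the fibroblast growth factor (FGF) pathway from ligand to feedback. They comprise 15 paracrine ligands, 3 endocrine ligands, 4 intracellular FGFs, 5 receptors, 5 receptor partners of the FLRT and FRS families, the transcription factors Etv4 and Etv5, and 8 inhibitors, which are the sprouty and SPRED proteins, Dusp6 and Il17rd. A gene row was taken as a member where its Ensembl identifier, without the version, carried one of 43 listed symbols in GENCODE M21. This gave 42 members among 38924 gene rows, and Spry3 was not analysed here.

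RNA was sequenced from sorted cells of 1 mESC line in 10 samples, all at day 5 of differentiation. In every group the cells carried the Foxa2-hCD4 allele, in which Foxa2 drives a shortened human CD4 on the cell surface, and living cells were sorted by staining for it. Embryoid bodies reaggregated in Activin A at 8 ng/ml with VEGF and BMP4 gave 3 samples of Foxa2+ CM (cardiac mesoderm, Kdr+Pdgfra+ and hCD4+), 3 of Foxa2- CM (Kdr+Pdgfra+ and hCD4-) and 2 of haematopoietic mesoderm, labelled by high Flk1, the protein of Kdr. Embryoid bodies in Activin A at 75 ng/ml gave 2 samples of hCD4+ endoderm. The methods name no FGF among the factors added before day 5 in either protocol. Endoderm differed from the other groups in both culture and sort, so that culture and cell type cannot be told apart in any comparison with it. The labels do not say whether samples came from separate cultures, so the p-values below measure the spread between these samples, which may be technical.

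FGF ligands bind tyrosine kinase receptors together with heparan sulfate, and the receptors recruit the docking proteins Frs2 and Frs3 to activate the Ras-ERK cascade. ERK signalling induces the ETS factors Etv4 and Etv5 and a set of inhibitors, among them the sprouty and SPRED proteins, the ERK phosphatase Dusp6 and the membrane protein Il17rd (Sef), so that their transcripts are often read as a record of recent signalling. In the gastrulating embryo FGFs are known for the exit from pluripotency, the migration of mesoderm out of the primitive streak, and the early heart field.

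The samples held 10926284 to 17470126 counts on genes, and 3 counts, taken as the smallest detectable signal, equalled 0.172 to 0.275 CPM of the sample total, a limit that covers counting error only. All other CPM values are counts scaled by the TMM-normalised library size to a common depth. Foxa2 itself stood at 20.0, 16.0 and 3.50 CPM in replicates 1, 2 and 3 of Foxa2+ CM, at 2.54, 0.873 and 0.903 CPM in Foxa2- CM, at 186 and 183 CPM in endoderm and at 0.690 and 0.788 CPM in haematopoietic mesoderm. Summed over 12 endoderm markers the level was 1708 and 1859 CPM in endoderm and 94.2 to 219 CPM elsewhere, and over 11 cardiac mesoderm markers it was 1081 to 1482 CPM in the CM samples and 134 to 970 CPM elsewhere. Over 12 haemato-endothelial markers it was 1898 and 2278 CPM in haematopoietic mesoderm. The CM samples numbered 3 stood apart in both CM groups, with haemato-endothelial sums of 707 and 695 CPM against 395 to 529 CPM in the other CM samples. Endoderm also carried epiblast markers, whose sum over 10 genes was 714 CPM in both samples and 58.8 to 202 CPM in the other samples. The endoderm list includes Foxa2, and the cardiac mesoderm list includes Kdr and Pdgfra. The sort used these 3 genes, so these 2 sums are not independent of it. In haematopoietic mesoderm Kdr alone stood at 554.5 and 592.7 CPM, of cardiac mesoderm sums of 749 and 970 CPM. No marker of these lists was at 0 in every sample of a group. In sorted bulk samples, fewer cells of a type and less RNA per cell cannot be told apart.

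Of the 42 members, 34 passed the expression filter for the model of all 10 samples and 33 passed it for the CM comparison, where Fgf14 was left out. The 8 members below the filter were Fgf2, Fgf6, Fgf16, Fgf18, Fgf20, Fgf21, Fgf22 and Fgf23. Fgf6 and Fgf20 stayed under 3 counts in every library. Fgf16, of the Fgf9 subfamily, reached 15 counts at most, with 0.652 and 1.26 CPM in endoderm and no more than 0.0794 CPM in any other sample. Fgf2, or basic FGF, had at most 3 counts in a library.

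A test of any difference among the 4 groups (edgeR quasi-likelihood F test with Benjamini-Hochberg adjustment over all tested genes, called at an adjusted p under 0.05, and written as edgeR adjusted p below) called 30 of 34 members, against 44.2% of 16180 genes. Members that passed the filter only through the group where they are high had to differ, so this count describes the tested members and not the family. The 4 tested members that were not called were the receptor gene Fgfr2, the inhibitors Spred1 and Dusp6, and Frs2. Each pairwise comparison below shares samples with others, so the comparisons are not independent of each other.

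The level per length, as CPM per kilobase of exon (RPKM), allows members to be compared with each other. On this scale the highest group means were those of Fgf5 and Fgf8 in endoderm, at 101 and 99.5 RPKM. Fgf3 led the ligands in haematopoietic mesoderm at 78.4 RPKM, while Fgf10 led them in Foxa2+ CM at 64.5 RPKM and in Foxa2- CM at 53.7 RPKM. The CM groups thus shared a leading ligand, while Fgf5 and Fgf8 were close to each other in endoderm. Among receptors the highest group means were those of Fgfr1, at 25.5 to 32.7 RPKM, and of the kinase-lacking receptor Fgfrl1, at 13.0 to 24.5 RPKM. Fgfr2, Fgfr3 and Fgfr4 lay between 0.264 and 7.72 RPKM in all 4 groups.

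**Figure D1:**
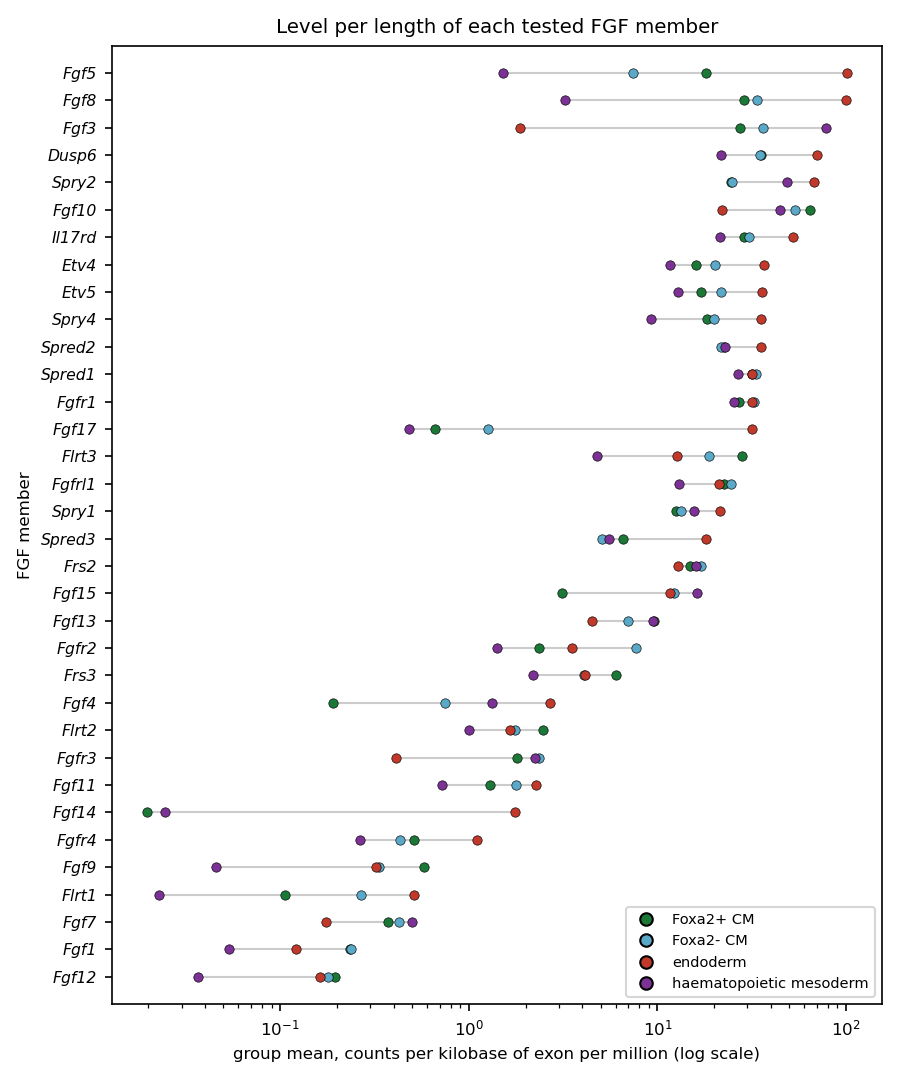
Group means of the 34 tested members in RPKM (horizontal axis, log scale), 1 point per sorted group and members ordered by their highest mean; lines join the lowest and highest group. Fgf5, Fgf8, Fgf3 and Fgf17 spread widely between groups while Spred1, Fgfr1 and Frs2 do not, and Fgf14 in Foxa2- CM is at 0 and cannot be drawn on this axis.

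Among the secreted ligands, Fgf3 was highest in haematopoietic mesoderm, while Fgf5, Fgf8 and Fgf17 were highest in endoderm. Fgf3, Fgf4 and Fgf15 lie side by side on chromosome 7 of mm10 on the plus strand. By the gene ends of GENCODE M21, 2930 bases lie between Fgf3 and Fgf4 and 31287 bases between Fgf4 and Fgf15. The RefSeq promoter window of Fgf4 lies further along, at 144861136 to 144861435. The distance from Fgf3 to the start of Fgf4 thus depends on the annotation. Fgf3 (ENSMUSG00000031074.8, 144838083 to 144844436), a ligand of early mesoderm and the otic placode, stood at 59.1, 55.1 and 77.7 CPM in Foxa2+ CM, at 85.2, 79.1 and 88.8 CPM in Foxa2- CM, at 4.66 and 4.02 CPM in endoderm and at 185 and 179.9 CPM in haematopoietic mesoderm. None of the groups overlapped. It was higher in haematopoietic mesoderm than in Foxa2+ CM by 1.51 on the log2 scale (SE 0.13, edgeR adjusted p = 0.000148) and than in Foxa2- CM by 1.11 (SE 0.13, edgeR adjusted p = 0.000657). In endoderm it was lower than in Foxa2- CM, with a log2 fold change of -4.28 (SE 0.18, edgeR adjusted p = 1.41e-06), and these 3 calls held in each of the 10 fits that left out 1 sample. Between the CM groups the log2 fold change was -0.40 (SE 0.13, edgeR adjusted p = 0.122), which did not pass with all 6 samples and passed without Foxa2+ CM replicate 3.

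Fgf4 (144847367 to 144865243), the ligand that primes embryonic stem cells for differentiation, was low everywhere, at 0.731, 0.579 and 0.508 CPM in Foxa2+ CM, at 2.48, 3.49 and 1.19 CPM in Foxa2- CM, 11.7 and 5.52 CPM in endoderm and 7.03 and 1.496 CPM in haematopoietic mesoderm. Its haematopoietic samples differed over a range wider than the difference from Foxa2- CM, and the epiblast marker sum of the same samples was 158 and 58.8 CPM, whose part in the result was not tested. It was higher in endoderm than in Foxa2+ CM by 3.82 on the log2 scale (SE 0.68, edgeR adjusted p = 0.00229), a call kept in each of the 10 fits that left out 1 sample. The call against Foxa2- CM (log2 fold change 1.86, SE 0.61, edgeR adjusted p = 0.0444) was lost without any 1 of the 6 CM samples or endoderm replicate 1, where the adjusted p rose as far as 0.305.

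Fgf15 (144896531 to 144900953), the mouse counterpart of human FGF19, stood at 5.63, 6.83 and 16.2 CPM in Foxa2+ CM, below all other samples. In Foxa2- CM it stood at 38.0, 38.0 and 36.6 CPM, in endoderm at 33.4 and 38.0 CPM and in haematopoietic mesoderm at 65.0 and 34.7 CPM. Foxa2+ CM was thus the group that stood apart for this gene. Its log2 fold change was 1.89 from Foxa2+ CM to endoderm (SE 0.40, edgeR adjusted p = 0.0056) and 2.37 to haematopoietic mesoderm (SE 0.40, edgeR adjusted p = 0.00314), each kept in the 10 fits that left out 1 sample. Of its 3058 exonic bases, 761 overlap the antisense gene Gm26793, which had 394 counts over all samples, and the library kit does not mark strand, so reads there cannot be assigned to either gene.

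The promoter window of Fgf3, the highest member of this cluster, is shown with its match to AGATAA, letters bound by GATA factors, in capitals. All promoter windows here run from 250 bases before to 50 bases after a RefSeq start on GRCm38.p6 and were available for 32 members, and a match is a description of letters and not a binding site.
Fgf3, chr7:144838362-144838661, plus strand: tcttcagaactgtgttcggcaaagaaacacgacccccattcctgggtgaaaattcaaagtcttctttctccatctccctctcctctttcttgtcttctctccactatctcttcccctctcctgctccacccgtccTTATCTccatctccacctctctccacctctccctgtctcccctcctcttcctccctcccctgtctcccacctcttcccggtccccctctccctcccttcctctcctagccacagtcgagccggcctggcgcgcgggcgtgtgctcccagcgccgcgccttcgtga
The capitals read TTATCT, the reverse complement of AGATAA, at positions -115 to -110 from the start. These letters occurred on either strand in 11.2% of 32851 mouse promoter windows and in windows of 4 members, Fgf3, Fgf9, Fgf23 and Spred3.

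Fgf5 (ENSMUSG00000029337.1, chromosome 5, 98254184 to 98277030, plus strand), a ligand of the postimplantation epiblast, stood at 57.2, 51.2 and 27.5 CPM in Foxa2+ CM, at 24.8, 20.1 and 10.6 CPM in Foxa2- CM, at 259 and 247 CPM in endoderm and at 3.58 and 4.02 CPM in haematopoietic mesoderm. The 4 groups did not overlap. It was higher in endoderm than in Foxa2+ CM by 2.49 on the log2 scale (SE 0.33, edgeR adjusted p = 0.000481) and lower in haematopoietic mesoderm than in Foxa2+ CM, with a log2 fold change of -3.58 (SE 0.44, edgeR adjusted p = 0.000787). Between the CM groups its log2 fold change was 1.30 (SE 0.35, edgeR adjusted p = 0.0709), which did not pass. In each group replicate 3 was the lowest sample, and the call passed when either of them was left out. By replicate number, Foxa2+ CM and Foxa2- CM stood at 57.2 and 24.8, 51.2 and 20.1, and 27.5 and 10.6 CPM. The fit does not pair samples by number, so the lower level of both replicates 3 entered its SE. With both samples numbered 3 left out, an alternative chosen after seeing the data, the log2 fold change was 1.28 and passed the threshold, in a fit with 2 samples a group.

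The window of Fgf5 is shown because this gene had the highest level per length of all members, with TATAAA, the TATA box letters, in capitals.
Fgf5, chr5:98253934-98254233, plus strand: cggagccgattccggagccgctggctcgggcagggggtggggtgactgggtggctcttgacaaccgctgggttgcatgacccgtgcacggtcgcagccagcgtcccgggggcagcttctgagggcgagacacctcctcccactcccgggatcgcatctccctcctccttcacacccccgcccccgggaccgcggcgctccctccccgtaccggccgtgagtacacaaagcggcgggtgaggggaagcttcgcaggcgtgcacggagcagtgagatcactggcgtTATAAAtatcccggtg
This match lies at positions 34 to 39, after the annotated start, and the letters occurred in 13.6% of all promoter windows.

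Fgf8 (chromosome 19, 45736798 to 45742915, minus strand), which mesoderm cells need to leave the primitive streak, stood at 45.5, 38.4 and 32.5 CPM in Foxa2+ CM, at 49.97, 48.4 and 38.5 CPM in Foxa2- CM, 123 and 146 CPM in endoderm and 2.89 and 5.83 CPM in haematopoietic mesoderm. The CM groups overlapped, with a log2 fold change of -0.23 between them (95% interval -0.56 to 0.10). It was higher in endoderm than in Foxa2+ CM by 1.79 (SE 0.22, edgeR adjusted p = 0.000295) and lower in haematopoietic mesoderm than in Foxa2+ CM, at -3.18 (SE 0.28, edgeR adjusted p = 0.000159). Fgf17, of the same subfamily, stood at 49.3 and 57.5 CPM in endoderm and at no more than 2.79 CPM in any other sample. Its log2 fold change from Foxa2+ CM to endoderm was 5.58 (SE 0.28, edgeR adjusted p = 2.32e-06), the largest of any secreted ligand in that comparison. The endoderm calls of Fgf5, Fgf8 and Fgf17 against either CM group held in each of the 10 fits that left out 1 sample. Duplicate reads had been removed, which caps single-end counts, and Fgf8 reached 1.29 counts per exonic base, the highest of the members, of which 10 exceeded 0.5. How far this cap affected their differences was not tested.

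Fgf10 (chromosome 13, 118669791 to 118792115, plus strand), a ligand of the second heart field and lung bud, was the most abundant ligand of the CM, at 317, 290 and 283 CPM in Foxa2+ CM and at 239, 267 and 236 CPM in Foxa2- CM. The endoderm samples stood at 62.2 and 139.7 CPM and the haematopoietic samples at 155 and 259 CPM, with wide gaps between replicates in both. It was lower in endoderm than in Foxa2+ CM, with a log2 fold change of -1.55 (SE 0.31, edgeR adjusted p = 0.00404), in each of the 10 fits that left out 1 sample. The CM groups did not overlap, but the log2 fold change of 0.27 (SE 0.08, edgeR adjusted p = 0.0824) did not pass. Among the low ligands, Fgf9 stood at 2.20 to 3.13 CPM in Foxa2+ CM, at 1.35 to 1.98 CPM in Foxa2- CM and 0.188 and 0.236 CPM in haematopoietic mesoderm, where it was lower than in Foxa2+ CM at -3.63 on the log2 scale (SE 0.39, edgeR adjusted p = 0.000413). Fgf1 and Fgf7 did not exceed 1.76 CPM in any sample.

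**Figure D2:**
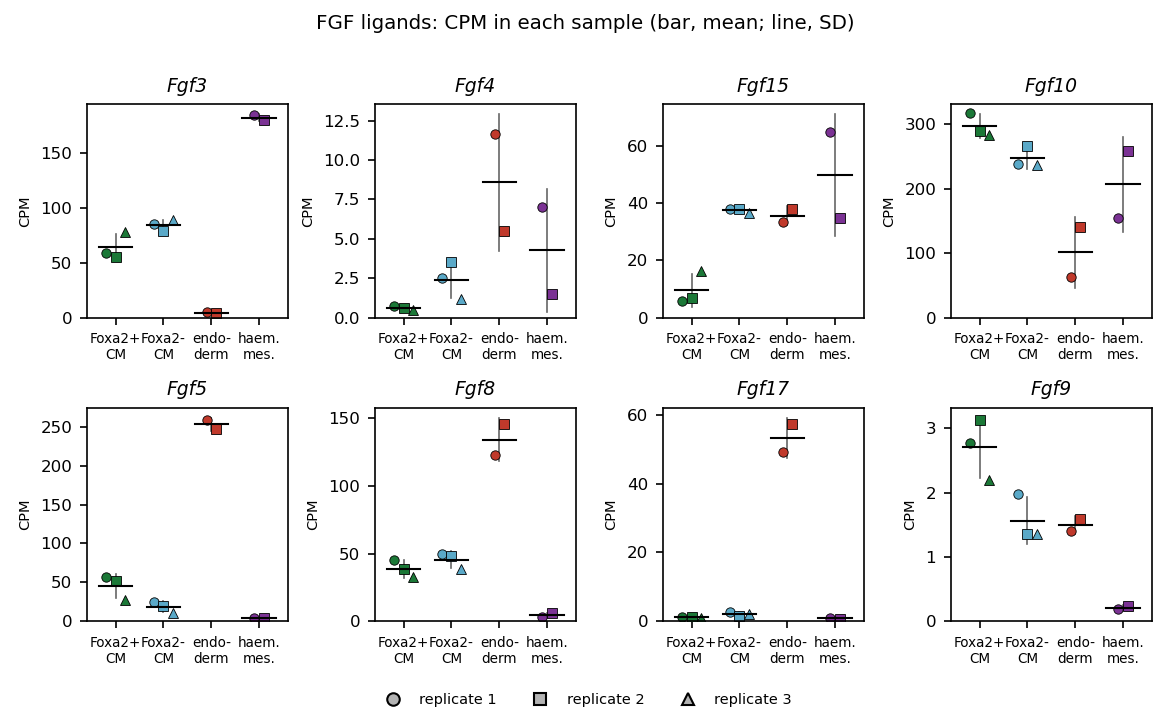
CPM of 8 secreted ligands in each of the 10 samples (vertical axis, linear from 0), by sorted group; marker shapes give the replicate number, horizontal bars the group mean and vertical lines the SD. Fgf3 is highest in haematopoietic mesoderm at 185 and 179.9 CPM, Fgf5, Fgf8 and Fgf17 are highest in endoderm, and Fgf15 is lowest in Foxa2+ CM.

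The intracellular FGFs, which are not secreted and are known as partners of voltage-gated sodium channels, also differed between groups. Fgf14 stood at 8.95 and 5.77 CPM in endoderm, at 0.0564 to 0.126 CPM in Foxa2+ CM and haematopoietic mesoderm, and at 0 in all 3 samples of Foxa2- CM. Its mean in endoderm of 7.36 CPM was at least 114-fold higher than in Foxa2- CM, against a floor of 3 counts over that group. Fgf13 (chromosome X, 59062145 to 59568071, minus strand) stood at 36.7, 41.3 and 37.2 CPM in Foxa2+ CM, at 29.0, 29.5 and 25.3 CPM in Foxa2- CM, 19.9 and 16.1 CPM in endoderm and 39.0 and 37.2 CPM in haematopoietic mesoderm. It was lower in endoderm than in Foxa2+ CM at -1.09 (SE 0.13, edgeR adjusted p = 0.000258) in each of the 10 fits that left out 1 sample. Fgf11 ranged from 2.20 to 6.99 CPM and was highest in endoderm at 6.99 and 6.78 CPM, and Fgf12 did not exceed 1.35 CPM.

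Of the 5 receptor genes, 0 were called between the CM groups by edgeR, against 6.48% of all tested genes, while 2, Fgfr1 and Fgfr2, had an unadjusted p under 0.05 and DESeq2 called Fgfr1. With both samples numbered 3 left out, edgeR called those 2, against 17.4% of genes. Fgfr1, the main mesodermal receptor, stood at 251, 249.9 and 297 CPM in Foxa2+ CM, at 298, 334 and 336 CPM in Foxa2- CM, 311 and 317 CPM in endoderm and 224 and 279 CPM in haematopoietic mesoderm. The widest distance between its group means was that between haematopoietic mesoderm and Foxa2- CM, with a log2 fold change of -0.36 (SE 0.11, edgeR adjusted p = 0.044). That call was lost in 8 of the 10 fits that left out 1 sample, all but those without Foxa2+ CM replicate 3 or haematopoietic replicate 2, with values down to -0.21 without haematopoietic replicate 1. Fgfrl1, which has no kinase domain, stood at 36.1 CPM in both haematopoietic samples and at 59.2 to 69.9 CPM in the CM samples. It was lower in haematopoietic mesoderm than in Foxa2- CM at -0.92 (SE 0.19, edgeR adjusted p = 0.00891) in each of the 10 fits that left out 1 sample.

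Fgfr2 was highest in replicate 3 of each CM group. In Foxa2+ CM it stood at 6.43, 14.7 and 51.8 CPM and in Foxa2- CM at 47.1, 58.7 and 134 CPM, and the groups overlapped through replicate 3 of Foxa2+ CM. The haemato-endothelial marker sum was also highest in those samples, at 707 and 695 CPM, and its part in the result was not tested. Haematopoietic mesoderm itself had 12.6 and 16.4 CPM of Fgfr2, and endoderm 27.4 and 45.5 CPM. Between the CM groups the log2 fold change was -1.70 (SE 0.68, edgeR adjusted p = 0.22), and with both samples numbered 3 left out it was -2.27 and passed the threshold. It also passed without replicate 3 of Foxa2+ CM alone, at -2.90. Fgfr2 shares 314 of its 10328 exonic bases with Ctbp2 on the same strand, a gene with 17892 counts over all samples. Within the CM groups Fgfr3 was likewise highest in those samples, at 10.8, 11.4 and 28.2 CPM in Foxa2- CM and at 9.14, 11.98 and 17.7 CPM in Foxa2+ CM, and it stood at 12.2 and 19.9 CPM in haematopoietic mesoderm. In endoderm it stood at 2.80 and 3.10 CPM, below all other samples, with a log2 fold change of -2.13 from Foxa2+ CM (SE 0.52, edgeR adjusted p = 0.0105), lost without endoderm replicate 1 (adjusted p = 0.0811) or 2 (adjusted p = 0.064). Fgfr4 did not exceed 1.97 CPM outside endoderm, where the samples stood at 1.58 and 6.27 CPM.

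**Figure D3:**
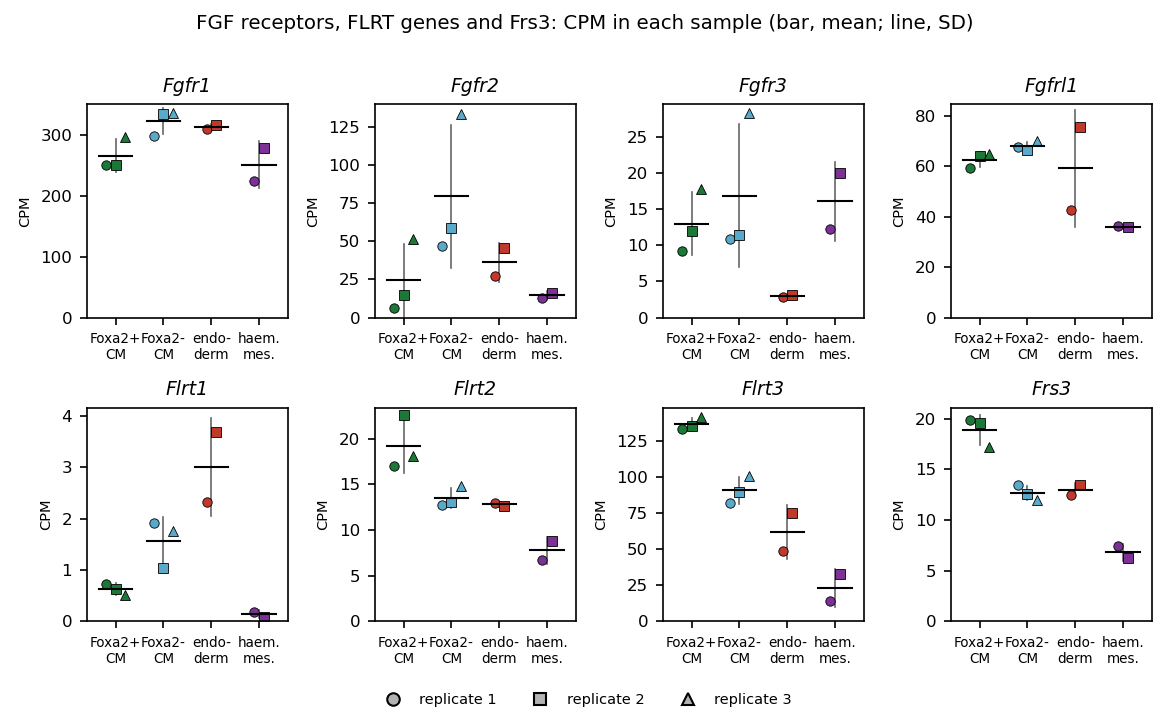
CPM of 4 receptor genes, the 3 FLRT genes and Frs3 in each of the 10 samples (vertical axis, linear from 0), by sorted group; marker shapes give the replicate number, horizontal bars the group mean and vertical lines the SD. Fgfr2 is highest in replicate 3 of each CM group, and Flrt3 and Frs3 are higher in all 3 Foxa2+ CM samples than in any other sample.

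The FLRT proteins are membrane proteins that bind FGF receptors and act in cell adhesion. Flrt3 (ENSMUSG00000051379.6, chromosome 2, 140650914 to 140671469, minus strand) stood at 133, 136 and 142 CPM in Foxa2+ CM, at 82.1, 89.5 and 101 CPM in Foxa2- CM, 49.0 and 75.3 CPM in endoderm and 13.9 and 32.6 CPM in haematopoietic mesoderm. The 4 groups did not overlap, and Foxa2+ CM was the highest. It was lower in haematopoietic mesoderm than in Foxa2+ CM at -2.57 (SE 0.32, edgeR adjusted p = 0.000762), in each of the 10 fits that left out 1 sample. From Foxa2+ CM to endoderm its log2 fold change was -1.14 (SE 0.29, edgeR adjusted p = 0.0138), lost without endoderm replicate 1 (log2 fold change -0.90, adjusted p = 0.119). Flrt2 had the same order of mesoderm group means, at 17.0, 22.6 and 18.1 CPM in Foxa2+ CM, at 12.7, 13.0 and 14.8 CPM in Foxa2- CM and 6.71 and 8.82 CPM in haematopoietic mesoderm, with 13.0 and 12.6 CPM in endoderm. Flrt1 went the other way between the CM groups at a far lower level, at 0.508 to 0.731 CPM in Foxa2+ CM and 1.03 to 1.92 CPM in Foxa2- CM. It stood at 2.33 and 3.68 CPM in endoderm and was again lowest in haematopoietic mesoderm, at 0.188 and 0.0788 CPM. It was lower in haematopoietic mesoderm than in Foxa2- CM at -3.43 (SE 0.53, edgeR adjusted p = 0.0022), in each of the 10 fits that left out 1 sample.

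The promoter window of Flrt3 is shown because this gene had the lowest adjusted p of the members between the CM groups.
Flrt3, chr2:140671427-140671726, minus strand: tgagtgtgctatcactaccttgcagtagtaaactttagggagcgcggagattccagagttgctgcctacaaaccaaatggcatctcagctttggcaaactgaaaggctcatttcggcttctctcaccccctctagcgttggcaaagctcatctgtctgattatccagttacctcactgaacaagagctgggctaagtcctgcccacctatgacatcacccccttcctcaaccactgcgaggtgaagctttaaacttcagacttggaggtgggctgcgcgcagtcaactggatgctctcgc
It holds none of the 6 letter strings searched on both strands, which were the forkhead strings TGTTTAC and TGTTTGC, the ETS string CCGGAAGT, the octamer ATTTGCAT, AGATAA and TATAAA. That says only that these letters are not in this window.

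The docking proteins Frs2 and Frs3 link the receptors to the Ras-ERK cascade. Frs2 stood between 108 and 171 CPM in all samples and was not called among the 4 groups (edgeR adjusted p = 0.108). Frs3 stood at 19.9, 19.6 and 17.2 CPM in Foxa2+ CM, at 13.4, 12.6 and 12.02 CPM in Foxa2- CM, 12.5 and 13.5 CPM in endoderm and 7.40 and 6.22 CPM in haematopoietic mesoderm. All 3 Foxa2+ CM samples were above the 7 others, and both haematopoietic samples below them. It was lower in haematopoietic mesoderm than in Foxa2+ CM at -1.47 (SE 0.16, edgeR adjusted p = 0.000435), in each of the 10 fits that left out 1 sample. Of its 3128 exonic bases, 509 overlap the antisense gene Frs3os, which had 196 counts over all samples.

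Between Foxa2+ CM and Foxa2- CM, which differ in the hCD4 sort, 8 of 33 tested members were called, against 6.48% of 15284 tested genes (edgeR quasi-likelihood test on the 6 CM samples). Higher in Foxa2+ CM were 3 members, against 3.81% of all genes, and lower were 5, against 2.66%. The median log2 fold change over the 33 members was -0.09, and over all tested genes it was -0.00. For 17 of 33 members the CM groups had no overlap, against 24.0% of all tested genes.

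The 3 higher members were Flrt3, with a log2 fold change of 0.59 (SE 0.09, edgeR adjusted p = 0.00911), Frs3, at 0.58 (SE 0.12, edgeR adjusted p = 0.0284), and Fgf13, at 0.46 (SE 0.09, edgeR adjusted p = 0.0254). All 3 changes were below 2-fold. Of the 5 lower members, Fgf15 had a log2 fold change of -1.96 (SE 0.35, edgeR adjusted p = 0.0174) and Fgf4 of -1.95 (SE 0.43, edgeR adjusted p = 0.0367), at a level of Fgf4 under 4 CPM in every CM sample. Flrt1 followed at -1.35 (SE 0.32, edgeR adjusted p = 0.0482). The ETS factors Etv4, at -0.33 (SE 0.08, edgeR adjusted p = 0.0438), and Etv5, at -0.36 (SE 0.08, edgeR adjusted p = 0.0435), were lower by a small amount in all 3 Foxa2+ CM samples than in all 3 Foxa2- CM samples. Their values are given with the feedback genes below.

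Markers of other cell types also differed between the CM groups. Over all tested genes, 3.81% were called higher in Foxa2+ CM and 2.66% lower. The endoderm marker sum was 139 to 167 CPM in Foxa2+ CM and 94.2 to 120.5 CPM in Foxa2- CM, with 4 of 12 markers called higher in Foxa2+ CM and 0 lower. That sum includes Foxa2, whose locus drives the sorted hCD4, so part of this difference was set by the sort. Of its other markers, Cdh1 and Foxa1 went the other way without a call. Cdh1 stood at 11.6, 13.5 and 9.14 CPM in Foxa2+ CM and 16.6, 16.5 and 16.7 CPM in Foxa2- CM. Foxa1 stood at 0.846 to 1.27 CPM and 1.86 to 1.98 CPM. The cardiac mesoderm sum was 1081 to 1290 CPM against 1336 to 1482 CPM, with 3 of 11 markers called higher and 3 lower. It includes Kdr and Pdgfra, by which both CM groups were sorted. The epiblast sum was 115.5 to 141 CPM in Foxa2+ CM and 134 to 202 CPM in Foxa2- CM, with 2 of 10 markers called lower, 0 higher and 8 not called. Nanog, a pluripotency factor on that list, stood at 5.86 CPM ± 0.79 (SD, n = 3) in Foxa2+ CM and at 31.5 CPM ± 6.96 (SD, n = 3) in Foxa2- CM. The list did not move as a whole. Esrrb went the other way, at 4.24, 5.27 and 6.04 CPM in Foxa2+ CM and 1.61, 1.11 and 3.33 CPM in Foxa2- CM. Otx2 had group means of 38.3 and 37.8 CPM in Foxa2+ and Foxa2- CM. Fgf4 is itself expressed in the epiblast, and the part of these markers in the calls of the members was not tested.

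These CM calls depended on which samples were in the fit. Without Foxa2+ CM replicate 1, 3 members were called (2.63% of genes), all of them among the 8, namely Etv4, Fgf15 and Flrt3. Without Foxa2+ CM replicate 3 the count was 8 (6.19% of genes), of which Fgf13, Fgf15, Flrt3 and Frs3 were among those named above. Without Foxa2- CM replicate 1 it was 1, Flrt3 (2.65% of genes). Without Foxa2- CM replicate 3 it was 9, against 1701 of 15401 genes, and these included all of the 8 but Flrt1. Without replicate 2 of Foxa2+ CM (1.51% of genes) or of Foxa2- CM (1.52% of genes), edgeR called 0 members, with 13 and 15 at an unadjusted p under 0.05. DESeq2, run on all 6 samples only, called 11. All 8 members kept their direction in the 6 fits. With both samples numbered 3 left out, 16 of 33 members were called, against 17.4% of 15093 genes, and all 8 members named above were among them. With all 10 samples in 1 model, only Fgf15 was called (edgeR adjusted p = 0.0378).

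**Figure D4:**
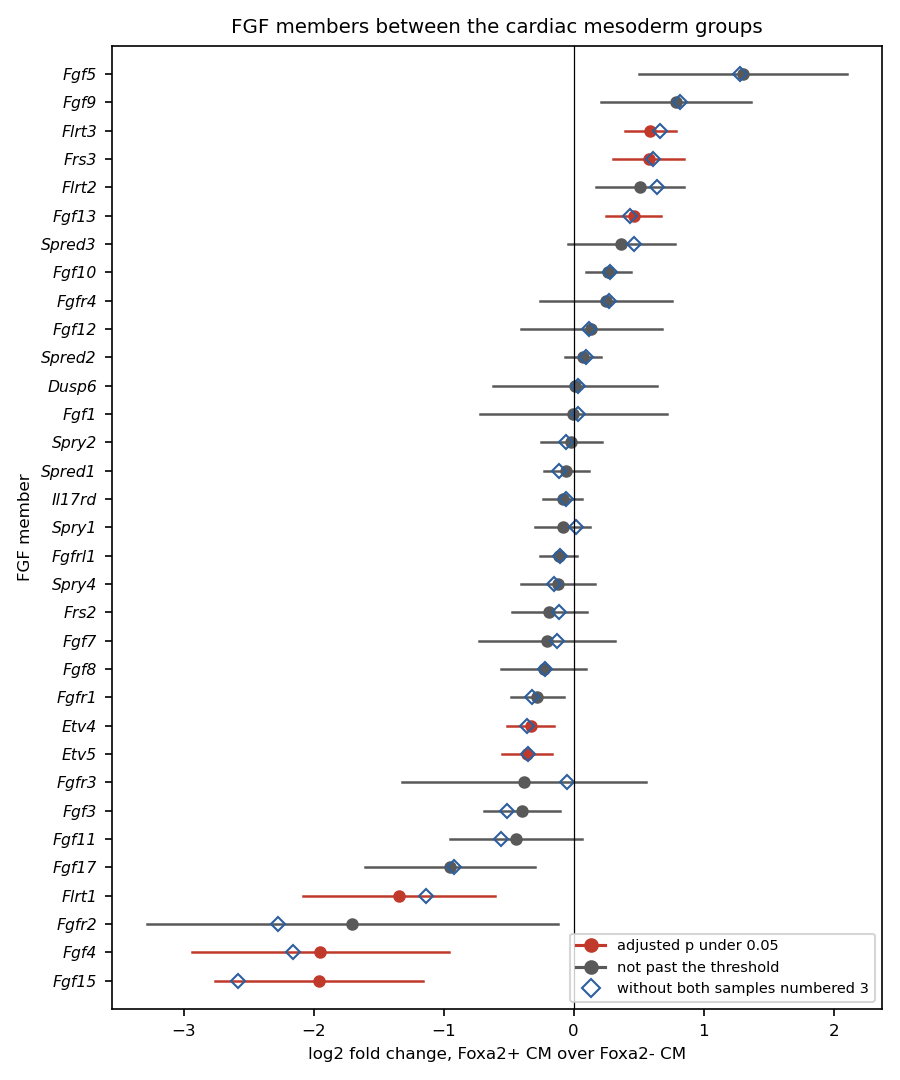
Log2 fold change of the 33 tested members, Foxa2+ CM over Foxa2- CM (horizontal axis), from edgeR on the 6 CM samples, with 95% intervals as lines; red marks an adjusted p under 0.05, and open diamonds are the values without both samples numbered 3. Of the 8 red members, Flrt3, Frs3 and Fgf13 lie above 0 and Etv5, Etv4, Flrt1, Fgf4 and Fgf15 below it, and the wide interval of Fgfr2 reaches from -3.29 to -0.12 without a call.

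Etv4, Etv5 and most of the feedback inhibitors had their highest levels in endoderm. Etv4 (chromosome 11, 101769742 to 101785371, minus strand) stood at 53.3, 46.8 and 48.3 CPM in Foxa2+ CM, at 66.1, 62.9 and 58.1 CPM in Foxa2- CM, 118 and 111 CPM in endoderm and 39.9 and 32.8 CPM in haematopoietic mesoderm. Etv5 (chromosome 16, 22381309 to 22439719, minus strand) stood at 74.8, 70.6 and 63.4 CPM in Foxa2+ CM, at 91.6, 95.4 and 81.7 CPM in Foxa2- CM, 153 and 142 CPM in endoderm and 69.5 and 36.5 CPM in haematopoietic mesoderm. Both had the order endoderm, Foxa2- CM, Foxa2+ CM and haematopoietic mesoderm in their group means. Etv4 was higher in endoderm than in Foxa2- CM by 0.87 (SE 0.10, edgeR adjusted p = 0.000277) and lower in haematopoietic mesoderm than in Foxa2- CM, at -0.78 (SE 0.11, edgeR adjusted p = 0.00135), each in the 10 fits that left out 1 sample. Etv5 was higher in endoderm than in Foxa2- CM by 0.72 (SE 0.21, edgeR adjusted p = 0.0276), a call lost without any 1 of the 3 Foxa2- CM or 2 endoderm samples, where the log2 fold change was 0.64 to 0.76 and the adjusted p at most 0.138.

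One of the 2 promoter windows of Etv5 is shown with TGTTTAC, a forkhead string, in capitals. Of the members called between the CM groups that had a window, Etv5 was the one with a forkhead string. No window was available for Etv4, Fgf15 and Flrt1. This window was thus chosen for its match. The other Etv5 window (chr16:22438319-22438618) and the windows of Fgf4, Fgf13, Flrt3 and Frs3 held neither forkhead string.
Etv5, chr16:22439521-22439820, minus strand: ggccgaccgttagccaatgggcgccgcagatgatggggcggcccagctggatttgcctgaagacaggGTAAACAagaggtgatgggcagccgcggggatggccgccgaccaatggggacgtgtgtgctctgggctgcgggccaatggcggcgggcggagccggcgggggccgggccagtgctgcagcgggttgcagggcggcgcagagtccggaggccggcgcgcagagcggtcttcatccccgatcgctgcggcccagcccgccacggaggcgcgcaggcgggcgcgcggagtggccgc
The capitals read GTAAACA, the reverse complement, at positions -183 to -177. TGTTTAC occurred in 3.65% of all promoter windows and in windows of Etv5 and Fgf10 among the members. TGTTTGC occurred in 5.07% of all windows and in that of Dusp6. ETS letters CCGGAAGT occurred in 3.89% of all windows and in those of Fgfrl1 and Frs2.

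Of the 8 feedback inhibitors, 0 were called between the CM groups by edgeR, against 6.48% of all tested genes, 0 had an unadjusted p under 0.05, and DESeq2 called 0, while their median log2 fold change was -0.04. Spry2 had a log2 fold change of -0.02 (95% interval -0.25 to 0.22) and Il17rd of -0.09 (95% interval -0.24 to 0.07). Dusp6 had a log2 fold change of 0.01 with a wider 95% interval, -0.62 to 0.64. Its same-numbered values, Foxa2+ before Foxa2-, were close: 132 and 128, 129 and 128, then 71.1 and 73.8 CPM. The fit does not pair samples by number, so the low level of both replicates 3 entered that interval. Spred3 stood at 47.1, 45.1 and 30.3 CPM in Foxa2+ CM, with 36.8, 30.2 and 27.9 CPM in Foxa2- CM, and its log2 fold change of 0.37 (95% interval -0.04 to 0.78) did not pass. It passed without Foxa2+ CM replicate 3, at 0.55, and without both samples numbered 3, at 0.47. Against Foxa2+ CM, 6 of the 8 were called higher in endoderm (18.3% of all genes) and 0 lower (16.7%), and against Foxa2- CM the counts were also 6 (16.1% of all genes) and 0 (14.0%). The 2 not called in either comparison were Spred1 and Dusp6.

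Among the sprouty genes, Spry2 stood at 45.8, 49.6 and 58.6 CPM in Foxa2+ CM, at 49.97, 50.4 and 55.8 CPM in Foxa2- CM, 149 and 135 CPM in endoderm and 126 and 77.4 CPM in haematopoietic mesoderm. Spry4 stood at 92.8, 91.6 and 76.4 CPM in Foxa2+ CM, at 106, 99.9 and 77.4 CPM in Foxa2- CM, 168 and 169 CPM in endoderm and 54.8 and 32.7 CPM in haematopoietic mesoderm. The mesoderm groups thus ranked differently for these paralogues, haematopoietic mesoderm being above the CM for Spry2 and below it for Spry4. Spry2 was higher in haematopoietic mesoderm than in Foxa2+ CM by 0.99 (SE 0.18, edgeR adjusted p = 0.00469) and in endoderm by 1.47 (SE 0.18, edgeR adjusted p = 0.000294). Spry4 was lower in haematopoietic mesoderm than in Foxa2+ CM, at -0.99 (SE 0.21, edgeR adjusted p = 0.00919), and higher in endoderm by 0.95 (SE 0.20, edgeR adjusted p = 0.00481). These 4 calls held in each of the 10 fits that left out 1 sample. Spry1 stood at 32.7 to 39.5 CPM in the CM samples, 57.7 and 66.7 CPM in endoderm and 51.8 and 39.1 CPM in haematopoietic mesoderm, and was higher in endoderm than in Foxa2+ CM by 0.78 (SE 0.13, edgeR adjusted p = 0.00193).

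Of the SPRED genes, which block Raf activation downstream of Ras, Spred1 had a narrow range, at 171.7 to 245 CPM over the 10 samples. Spred2 stood at 152 and 174 CPM in endoderm and 94.7 to 115 CPM elsewhere, and it was higher in endoderm than in Foxa2+ CM by 0.64 (SE 0.09, edgeR adjusted p = 0.000656). Spred3 stood at 118 and 108 CPM in endoderm and 27.3 to 47.1 CPM elsewhere. Its log2 fold change from Foxa2+ CM to endoderm was 1.47 (SE 0.22, edgeR adjusted p = 0.000802).

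Dusp6 stood at 132, 129 and 71.1 CPM in Foxa2+ CM, at 128, 128 and 73.8 CPM in Foxa2- CM, 233 and 209 CPM in endoderm and 100.4 and 35.3 CPM in haematopoietic mesoderm. Both CM samples numbered 3 were low. In the same samples the haemato-endothelial marker sum was the highest of each CM group, and the primitive streak sum, at 702 and 682 CPM, and the epiblast sum, at 115.5 and 134 CPM, were the lowest. Not every haemato-endothelial marker followed the sum, since Etv2 stood at 126, 104 and 97.6 CPM and Lmo2 at 117, 100.6 and 88.0 CPM in Foxa2+ CM. In Foxa2- CM Etv2 was also lowest in replicate 3, at 105.9, 113 and 91.1 CPM. Lmo2 followed the sum there, at 58.8, 54.7 and 63.7 CPM. The part of these markers in the Dusp6 values was not tested. From haematopoietic mesoderm to endoderm its log2 fold change was 1.70 (SE 0.47, edgeR adjusted p = 0.0201), lost without either endoderm sample or without haematopoietic replicate 2, with adjusted p values of 0.052 to 0.0731. Il17rd stood at 303, 323 and 320 CPM in Foxa2+ CM, at 316, 344 and 345 CPM in Foxa2- CM, 557 and 590 CPM in endoderm and 295 and 175 CPM in haematopoietic mesoderm. It was higher in endoderm than in Foxa2+ CM by 0.86 (SE 0.17, edgeR adjusted p = 0.00345), in each of the 10 fits that left out 1 sample.

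**Figure D5:**
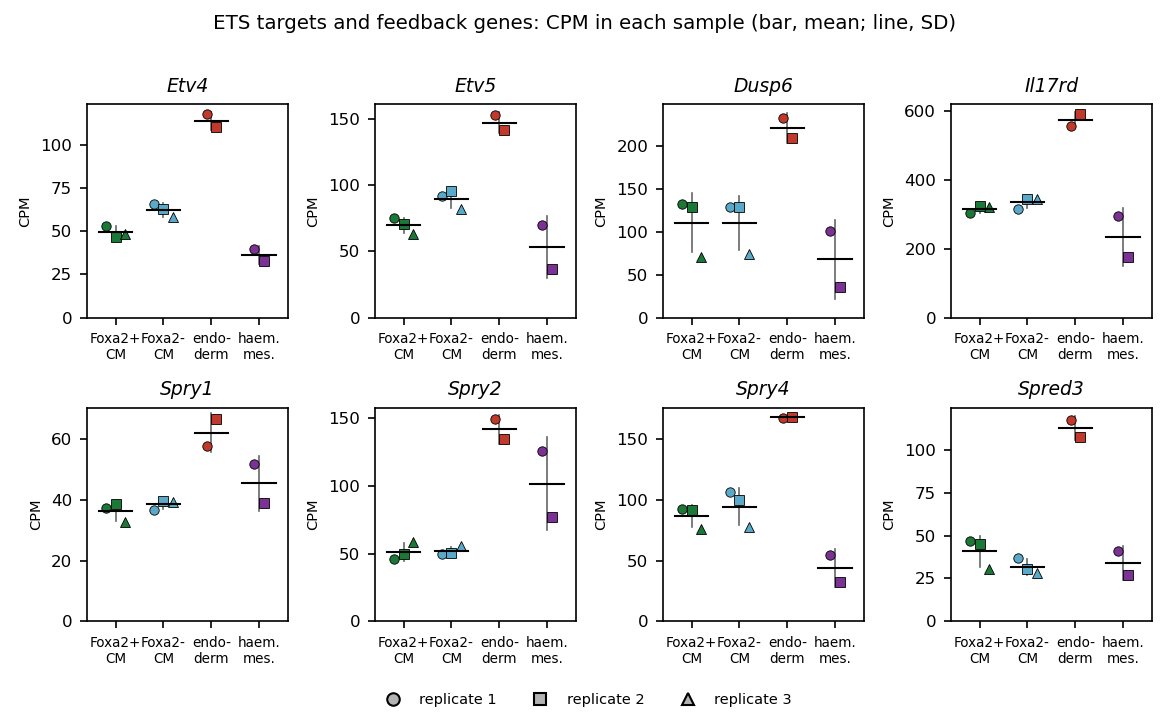
CPM of Etv4, Etv5 and 6 feedback inhibitors in each of the 10 samples (vertical axis, linear from 0), by sorted group; marker shapes give the replicate number, horizontal bars the group mean and vertical lines the SD. Both endoderm samples lie above all other samples for each of the 8 genes, and the CM samples numbered 3 are low for Dusp6 in both groups.

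From Foxa2+ CM to endoderm 24 of 34 members were called, against 35.0% of 16180 genes. Of these 16 were higher in endoderm (18.3% of all genes) and 8 lower (16.7%), with a median log2 fold change of 0.71 over members and 0.01 over all genes. From Foxa2- CM to endoderm 19 of 34 were called, against 30.1%, with 13 higher (16.1%), 6 lower (14.0%) and medians of 0.19 and 0.005. From Foxa2+ CM to haematopoietic mesoderm 17 of 34 were called, against 22.8%, with 4 higher (11.6%), 13 lower (11.2%) and medians of -0.43 and 0.03. From Foxa2- CM to haematopoietic mesoderm 20 of 34 were called, against 21.6%, with 3 higher (11.3%), 17 lower (10.3%) and medians of -0.70 and 0.02. The called members were thus mostly higher in endoderm and mostly lower in haematopoietic mesoderm than in CM. The endoderm counts, also those against haematopoietic mesoderm below, include Fgf14. It passed the filter only through endoderm and so had to be higher there. These counts describe the tested members and not the family. Between endoderm and haematopoietic mesoderm 26 of 34 were called, against 32.6%, with 21 higher in endoderm (16.4%) and 5 lower (16.2%). Those 5, higher in haematopoietic mesoderm, were Fgf3, Fgf7, Fgf10, Fgf13 and Fgfr3.

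The epiblast marker sum was 714 CPM in endoderm and 115 to 202 CPM in CM. The primitive streak sum over 8 genes was 1389 and 1527 CPM in endoderm, 682 to 1026 CPM in CM and 399 and 434 CPM in haematopoietic mesoderm. Not every marker followed these sums. From Foxa2+ CM to endoderm 6 of 10 epiblast markers were called higher and 2 lower, and 3 of 8 streak markers higher and 0 lower. From Foxa2- CM the counts were 6 and 2, and 3 and 1. Over all genes, 18.3% and 16.1% were higher, and 16.7% and 14.0% lower. The streak marker Mixl1 had means of 208, 229 and 229 CPM in Foxa2+ CM, Foxa2- CM and endoderm. Fgf4, Fgf5, Fgf8 and Fgf17 are themselves expressed in epiblast or primitive streak, and the part of such cells in the endoderm values was not tested.

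Of 17 coreceptors, adaptors and kinases from klotho genes to ERK, 15 were tested between the CM groups and 1 was called, Plcg1, a phospholipase bound by FGF receptors, at -0.27 (SE 0.06, edgeR adjusted p = 0.0373). That is 6.67% of the list, against 6.48% of all genes. From Foxa2+ CM to endoderm 6 of 16 were called, 4 higher and 2 lower, which is 37.5% against 35.0% of all genes. From Foxa2- CM to endoderm 2 of 16 were called, 12.5% against 30.1%. From Foxa2+ CM and from Foxa2- CM to haematopoietic mesoderm 4 of 16 were called, which is 25.0% against 22.8% and 21.6%. All 4 were higher there in each comparison, against 11.6% and 11.3% of all genes, and 0 were lower, against 11.2% and 10.3%. From haematopoietic mesoderm to endoderm 4 of 16 were called, which is 25.0% against 32.6% of all genes. Of these 0 were higher in endoderm, against 16.4%, and 4 lower, against 16.2%. The share of this list called in either direction was lower than that of all genes in this comparison and from Foxa2- CM to endoderm. It was near that of all genes in the other comparisons. A further list of 17 genes held other ERK response genes and the FGF-binding protein genes Fgfbp1 and Fgfbp3. Of these, 2 of 16 tested were called between the CM groups, 12.5% against 6.48% of all genes. Phlda1, an immediate early gene, stood at 96.5, 88.9 and 77.0 CPM in Foxa2+ CM and at 56.8, 57.0 and 59.6 CPM in Foxa2- CM, with a log2 fold change of 0.60 (SE 0.09, edgeR adjusted p = 0.0101). Dusp9, an ERK phosphatase like Dusp6, stood at 110.5, 110.6 and 138 CPM in Foxa2+ CM and at 149.7, 165 and 182 CPM in Foxa2- CM, at -0.47 (SE 0.11, edgeR adjusted p = 0.0471). In endoderm 4 of 17 were higher than in Foxa2+ CM, against 18.3% of all genes, and 5 lower, against 16.7%. The 17 include Fgfbp1, which passed the filter only through endoderm, with 17 and 13 counts there, so its direction was fixed. Phlda1 was among the lower ones, at 3.91 and 8.20 CPM in endoderm, and Dusp4 among the higher ones, at 148 and 166 CPM in endoderm and 72.5 to 80.7 CPM in Foxa2+ CM. In haematopoietic mesoderm Dusp4 reached 244 and 190.3 CPM, with a log2 fold change of 1.41 from Foxa2- CM (SE 0.14, edgeR adjusted p = 0.000303). When each CM sample was left out in turn, the CM calls of Plcg1, Phlda1 and Dusp9 held in 1, 3 and 2 of the 6 fits.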

How the data were processed

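RNA from 10 sorted samples was sequenced as 50 nt single-end reads from Illumina TruSeq v2 libraries, which do not mark strand. Per the labels and the study's methods, the authors aligned reads to mm10 with STAR 2.5.0a, removed duplicates with Picard and counted with HTSeq 0.6.0. The strand setting was not given in the sources used here. The deposited values are raw counts per gene, not normalized. Reads outside single genes, 19.5% to 27.8% of each sample, were left out.

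From these counts, edgeR 4.0.16 (R 4.3.3, TMM, expression filter with default settings, quasi-likelihood test, Benjamini-Hochberg adjustment over all tested genes, threshold 0.05) compared the CM groups in the 6 CM samples, and all other groups in 1 model of 10 samples. Standard errors were derived from the fold change and its F statistic. Groups came from the sample labels. Symbols, positions and exon lengths came from GENCODE M21, a later annotation than the one the authors used, and promoters from RefSeq. CPM uses TMM library sizes over the 10 samples. The fit was tested on simulated data. DESeq2 1.42.0, other size factors, filters, models, a replicate block, a 2-fold limit and leaving out each sample were alternatives. Figures used matplotlib 3.10.9.

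The members, the other lists and the alternatives were chosen with earlier results of these data known. Sample values are given for members called between the CM groups and for up to 6 per role with the widest range of group means among those with at least 50 counts in a library. Fgf9, Fgf10 and some low members were added after their values were seen. Of the other pathway genes, up to 3 with the lowest p in a comparison are named, besides Fgfbp1 and Fgfbp3.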

Additional observations from a re-analysis of the deposited data

How the results depend on the processing

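The members called between Foxa2+ CM and Foxa2- CM numbered 8 as reported, and 18 with the replicate block, 1 with all 10 samples in 1 model, 3 at a change of at least 2-fold and 16 with both CM samples numbered 3 left out, an alternative chosen after seeing the data. At a change of at least 2-fold, 11 members were called from Foxa2- CM to endoderm and 11 from Foxa2- CM to haematopoietic mesoderm, and 17 were called between endoderm and haematopoietic mesoderm with only those 2 groups in the fit. Fits that left out 1 sample called 0 to 9 members between the CM groups, 20 to 27 from Foxa2+ CM to endoderm, 15 to 22 from Foxa2- CM to endoderm, 14 to 17 from Foxa2+ CM to haematopoietic mesoderm, 16 to 21 from Foxa2- CM to haematopoietic mesoderm, 18 to 26 between endoderm and haematopoietic mesoderm, and 26 to 31 among all 4 groups. Where this left 1 sample in a group, that sample was assumed to vary like the other groups. DESeq2 called 11 members between the CM groups. The same replicate number did not mark a shared culture in the labels, so the block was not used in the reported fits. Deviations of same-numbered CM samples correlated at 0.447, 0.075 and 0.539 for numbers 1, 2 and 3. Those of differently numbered CM samples correlated at -0.51 to 0.254. Samples numbered 1 and those numbered 3 thus deviated together across the CM groups, which the reported fits do not take into account. The pairing changed no count other than that between the CM groups by over 1.5 times.

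Direction turned only for log2 fold changes that were not called, and the cause was not tested. With both CM samples numbered 3 left out, Spry1 stood at 0.016 between the CM groups, Fgfr2 at 0.42 from Foxa2+ CM to haematopoietic mesoderm and Fgfr3 at 0.534 from Foxa2- CM to haematopoietic mesoderm. With the replicate block the last 2 stood at 0.294 and 0.389. The fits that left out 1 sample gave Fgfr3 -0.676 to 0.242 between the CM groups. From Foxa2+ CM to endoderm they gave Fgfr4 -0.225 to 1.741 and Fgfrl1 -0.572 to 0.232, and from Foxa2- CM to endoderm Fgfrl1 -0.679 to 0.125. From Foxa2+ CM to haematopoietic mesoderm they gave Fgfr1 -0.277 to 0.068, Fgfr2 -1.236 to 0.439 and Spred2 -0.133 to 0.104. From Foxa2- CM to haematopoietic mesoderm they gave Fgf4 -0.643 to 1.567, Fgf15 -0.113 to 0.773, Fgfr3 -0.50 to 0.529, Spred2 -0.064 to 0.184 and Spred3 -0.215 to 0.364. From haematopoietic mesoderm to endoderm they gave Fgf15 -0.866 to 0.039. Without Foxa2+ CM replicate 3 Fgfr2 turned, without Foxa2- CM replicate 3 Fgfr3 did, without endoderm replicate 1 Fgfrl1 did, without endoderm replicate 2 Fgfr4 did, and the others did without haematopoietic replicate 1. Other size factors moved the median of all genes by at most 0.012 on the log2 scale. Depth limits the members with few counts, among them Fgf1, Fgf7, Fgf12, Fgf14 and Flrt1, with 142 to 184 counts over the 10 samples, and the 8 members below the filter.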
